A study of Mus musculus with 2 samples.

Results

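The genes described here are 55 genes whose products work at the DNA replication fork or make nucleotides. They were taken by symbol from a fixed list of DNA polymerases, primase, the sliding clamp and its loader, replication protein A, factors that fire origins, enzymes that finish the lagging strand, and enzymes of nucleotide synthesis, and all 55 were among the 14197 genes of the deposited table. Of these, 32 were fork genes and 23 were nucleotide genes. The list was chosen with earlier results of these data known. 4T1 cells, a murine breast cancer line labelled WT, were treated with 20 µM astragalin (AS), a plant flavonoid glycoside, or with the vehicle for 24 h. Total RNA was made into stranded mRNA libraries, 1 per condition. Because there was 1 library per condition, the difference between cultures could not be measured, no test was made, and every value below compares 1 library with 1 library.

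At a replication fork, the helicase that opens DNA is built from the MCM ring, CDC45 and the GINS complex, and the kinase CDC7 with its partner DBF4 switches it on. DNA polymerase alpha with primase starts each strand, polymerases epsilon and delta extend it, PCNA holds the polymerases on DNA, and replication protein A (RPA) coats the single strand. FEN1, DNA2 and DNA ligase 1 trim and join the short fragments of the lagging strand. Ribonucleotide reductase turns ribonucleotides into deoxyribonucleotides (dNTPs), thymidylate synthase and thymidine kinase supply thymidine nucleotides, and longer pathways build purines and pyrimidines from small precursors, which serve RNA and energy metabolism as well as DNA.

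The library sizes behind the RPKM were inferred, as the values that made the reads of most genes whole. They were 44909683 reads for AS and 50820728 for the vehicle, and the reads of the listed genes summed to 99.8% of each. They are not a measured sequencing depth. Levels are RPKM, reads per kilobase of exon scaled to library size. The length is in most cases that of all annotated exons of a gene, not of the transcript present. Levels, sums and ratios set between genes are therefore approximate. Fold changes are log2 ratios of AS over vehicle with 0.1 RPKM added to both values, which pulls those of low genes toward 0. The whole table was centred at a log2 fold change of 0.07 (median), with 60.9% of genes higher with AS. With the libraries rescaled by trimmed mean of M-values (TMM) and the 0.1 RPKM kept, 50.0% were higher, 2.77% of genes were lower by at least 1.5-fold and 2.75% were higher by as much, against 2.01% and 3.56% with the deposited scaling. All 8 epithelial markers looked up were in the table, at 13.4 to 707 RPKM with AS and 14.1 to 902 RPKM with the vehicle, which fits the label of a mammary tumor line. Of 12 markers of immune cells, endothelium, fibroblasts and red cells, 5 were listed, at no more than 4.24 RPKM in either library, and Cd3e, Cd79a, Adgre1, Pecam1, Cdh5, Pdgfrb and Hbb-bs were not in the table. Of the epithelial markers 6 were lower with AS and 2 higher, with a median of -0.22 on the log2 scale, from Krt19, a keratin (-0.73), to Cldn4, a tight junction protein (0.42). The 5 listed markers of other cells were all higher, from Ptprc (0.01) to Lyz2 (0.40), with a median of 0.30. The part of these shifts in the results below was not tested.

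E2F factors are known regulators of many S-phase genes, so the promoters of the members were searched for the letters TTTCCCGC, TTTGGCGC, TTTCGCGC and TTTGCCGC on both strands, in the 300 bases from 250 before to 50 after each RefSeq start (GRCm38.p6). Promoters were matched for 46 of the 55 members. Of 26 fork genes, 8 held such letters (30.8%), against 1 of 20 nucleotide genes (5%) and 4.91% of 9680 genes of the table. Of all 32851 promoters, 2.26% held them. The matches are shown because the share of genes with them differed between the fork and the nucleotide genes, with no test made. Each line gives 30 bases, 5′ to 3′ on the strand of the gene, with 1 match in capitals.
Rfc3 (chr5:151651200-151651229, minus strand): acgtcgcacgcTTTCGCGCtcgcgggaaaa
Lig1 (chr7:13278841-13278870, plus strand): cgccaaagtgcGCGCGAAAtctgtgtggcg
Gins3 (chr8:95633507-95633536, plus strand): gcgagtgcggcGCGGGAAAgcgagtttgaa
Pola1 (chrX:93632275-93632304, minus strand): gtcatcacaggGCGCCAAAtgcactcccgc
Pold1 (chr7:44548766-44548795, minus strand): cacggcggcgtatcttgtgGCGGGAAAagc
Pold3 (chr7:100121467-100121496, minus strand): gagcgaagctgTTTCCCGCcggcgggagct
Pole2 (chr12:69228162-69228191, minus strand): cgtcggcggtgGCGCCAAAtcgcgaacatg
Pole4 (chr6:82652890-82652919, minus strand): ctctacccggcGCGGGAAAggggccgaaat
Ppat (chr5:76951771-76951800, minus strand): gagcagaccgcGCGGGAAAaaagggcagtg

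Rfc3 and Ppat each held a second match in the promoter searched, that of Rfc3 being the gcgggaaa left in lower case in its line and that of Ppat lying outside the bases printed. The 9 members with these letters ranged from -0.69 (Lig1) to 0.13 (Pole4) on the log2 scale, with a median of -0.28. The 37 matched members without them had a median of -0.28 as well. The 2 sets differ in make-up, since the letters were held by 8 of 26 fork genes but 1 of 20 nucleotide genes. These medians therefore cannot show whether the letters bear on the fold change, which was not tested. Of 7 matched dNTP enzymes, 0 held the letters, and 3 held CCAAT, a short element bound by the factor NF-Y. On one strand or the other, CCAAT was held by 13 of 26 fork genes, 8 of 20 nucleotide genes and 43.1% of the 9680 genes. The letters CACGTG, also searched, were held by 5 of 26 fork genes (19.2%), 5 of 20 nucleotide genes (25%) and 11.7% of the 9680 genes. No test was made of either. The CCAAT site in Rrm2, the dNTP gene that was lowest relative to the vehicle, is shown, again with the match in capitals.
Rrm2 (chr12:24708192-24708221, plus strand): ggtcagcggcgtCCAATgggaggcgaggcc

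With AS, the fork genes and the dNTP enzymes were lower than with the vehicle by small amounts. The 15 enzymes that build purine and pyrimidine precursors stood near the vehicle level, though 12 of them were below the median of all genes. Of the 55 members, 47 were lower and 8 were higher with AS (49 and 6 under TMM scaling), where 39.1% of all genes were lower by any size. Of the 32 fork genes 30 were lower, with a median of -0.31 on the log2 scale, and of the 23 nucleotide genes 17 were lower, with a median of -0.15. No member was lower beyond a log2 fold change of -1 (0.31% of all genes) or higher beyond 1 (0.662% of all genes). The paper's methods name this fold threshold and also 1.5-fold, each together with a p-value or FDR. By at least 1.5-fold, 8 members were lower, which were Cdc7, Rrm2, Tk1, Lig1, Dna2, Rfc3, Tyms and Gins2, where 2.01% of all genes were, and 0 members were higher, where 3.56% of all genes were. Just inside that threshold was Gins2 (-0.59), and just outside it were Rpa2 (-0.56) and Pcna (-0.54). Together the members took 0.377% of the AS reads and 0.446% of the vehicle reads. A lower level in a culture can come from fewer cells that express a gene or from less RNA per cell, and these cannot be told apart in bulk RNA.

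**Figure D1:**
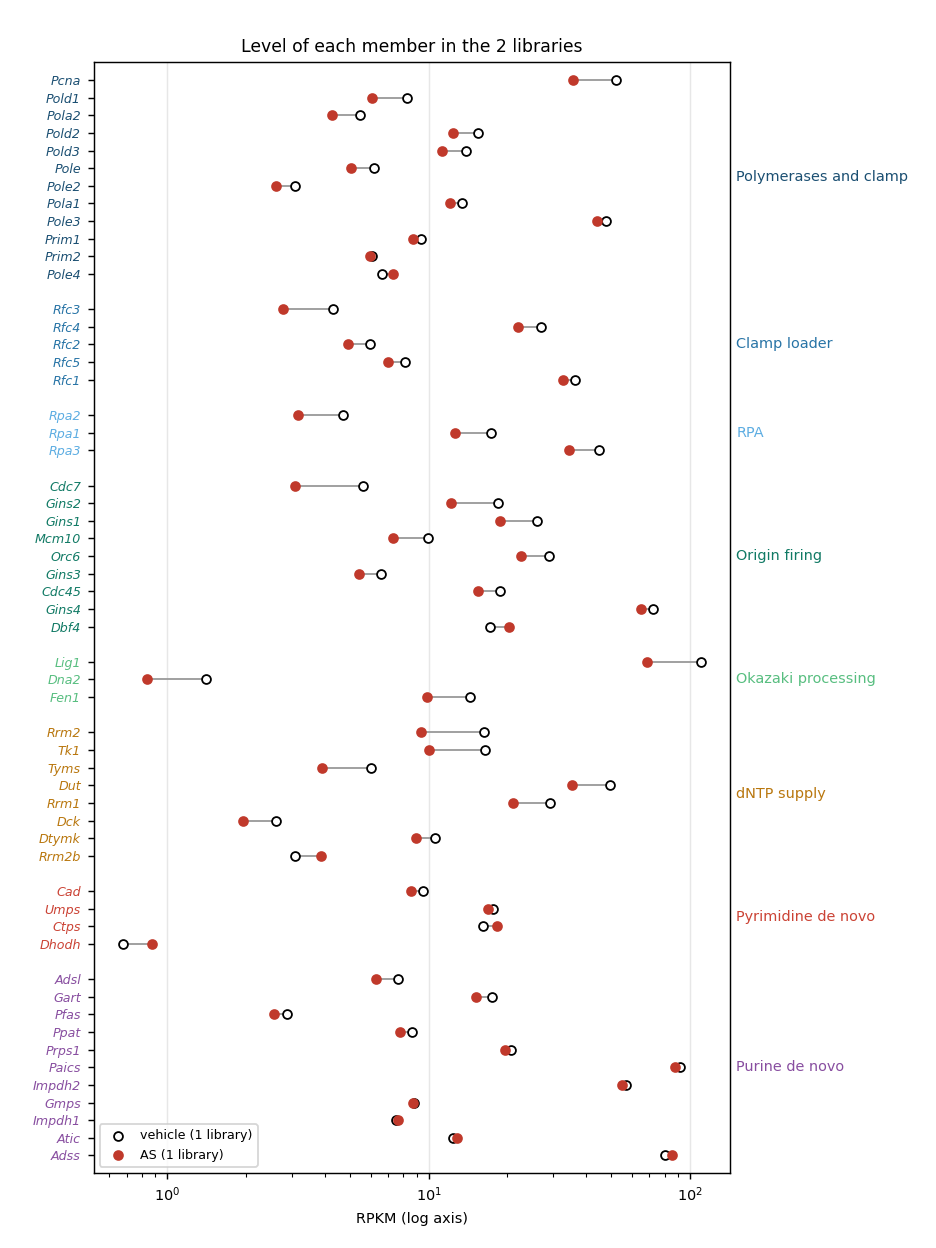
RPKM on a log axis of the 55 members in the 2 libraries, with vehicle as open circles and AS as filled circles, grouped by role. In the dNTP supply group 7 of 8 filled circles lie left of their open partners, with Rrm2b to the right, and in the purine group most circles overlap.

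The polymerase and clamp genes had a median log2 fold change of -0.25, and 11 of 12 were lower with AS. Pcna, the sliding clamp (chr2:132249162-132253314, minus strand), was lowest, at 35.7 RPKM with AS and 52.0 RPKM with the vehicle (log2 fold change -0.54, 95% interval -0.60 to -0.49). These and all later intervals are Clopper-Pearson intervals of the recovered reads, which cover counting error only and not the choice of scaling. They were computed without the 0.1 RPKM added, so a printed fold change need not lie at the centre. For Dna2, for example, the fold change from reads alone was -0.74, against -0.68 with the 0.1 RPKM. The log2 fold changes of the 3 polymerase delta genes among the members lay within 0.14 of each other. Pold1, its catalytic subunit, was at 6.06 RPKM with AS and 8.28 RPKM with the vehicle (-0.44), Pold2 at 12.4 and 15.5 RPKM (-0.31), and Pold3 at 11.3 and 13.9 RPKM (-0.30). Polymerase epsilon was less even. Pole, the catalytic subunit, was at 5.06 RPKM with AS and 6.17 RPKM with the vehicle (-0.28), and Pole2, its second subunit, was at 2.61 and 3.07 RPKM (-0.23). The small histone-fold subunits Pole3 and Pole4 were at 44.0 and 7.30 RPKM with AS against 47.9 and 6.63 RPKM, so that Pole3 was slightly lower (-0.12) and Pole4 slightly higher (0.13), and the interval of Pole4 included 0. Polymerase alpha and primase lay the primers, and the log2 fold changes of their 4 genes spanned 0.32. Pola2 was at 4.29 RPKM with AS and 5.47 RPKM with the vehicle (-0.34), and Pola1 was at 12.1 and 13.5 RPKM (-0.16). Prim1 was at 8.69 and 9.40 RPKM (-0.11) and Prim2 at 5.99 and 6.09 RPKM (-0.02), and the interval of Prim2, -0.12 to 0.07, included 0.

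All 5 genes of the clamp loader, which opens PCNA onto DNA, were lower with AS, with a median log2 fold change of -0.28. Rfc3, a small subunit (chr5:151642756-151651242, minus strand), stood apart from the rest, at 2.77 RPKM from 450 reads with AS and 4.32 RPKM from 793 reads with the vehicle (-0.62, 95% interval -0.81 to -0.47). Rfc1, the large subunit, was at 32.8 RPKM with AS and 36.2 RPKM with the vehicle (-0.14), so the RPKM ratio of Rfc1 to Rfc3 was 11.8 with AS and 8.38 with the vehicle. The other small subunits lay between these 2 genes. Rfc4 was at 22.0 and 26.9 RPKM (-0.29), Rfc2 at 4.90 and 5.97 RPKM (-0.28) and Rfc5 at 7.01 and 8.15 RPKM (-0.22).

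RPA was lower as a whole, with a median log2 fold change of -0.45 over its 3 subunits. Rpa2, the middle subunit, was at 3.15 RPKM with AS and 4.70 RPKM with the vehicle (-0.56, 95% interval -0.75 to -0.40). Rpa1, the large DNA-binding subunit, was at 12.6 and 17.3 RPKM (-0.45), and Rpa3 was at 34.6 and 45.1 RPKM (-0.38). Their log2 fold changes spanned only 0.18.

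Among the 9 genes of origin firing, 8 were lower with AS, and the median log2 fold change was -0.36. Cdc7, the kinase that activates the MCM helicase (chr5:106964322-106984432, plus strand), had the lowest log2 fold change of all 55 members. It was at 3.08 RPKM from 579 reads with AS and 5.61 RPKM from 1192 reads with the vehicle, which was 45.0% lower (-0.84, 95% interval -1.01 to -0.72), and 0.578% of all genes had a lower log2 fold change. Dbf4, which binds and activates CDC7 (chr5:8396973-8422716, minus strand), was the other way, at 20.3 RPKM with AS and 17.2 RPKM with the vehicle (0.23, 95% interval 0.19 to 0.28). The RPKM ratio of Dbf4 to Cdc7 was therefore 6.58 with AS and 3.08 with the vehicle. The intervals of the 2 genes did not overlap, but they hold no difference between cultures. Under TMM scaling with the 0.1 RPKM kept, Dbf4 was at 0.16, below its interval, and Cdc7 at -0.91. Of the 4 GINS subunits, Gins2 was lowest, at 12.2 RPKM with AS and 18.4 RPKM with the vehicle (-0.59, 95% interval -0.67 to -0.51). Gins1 was at 18.8 and 26.1 RPKM (-0.47), Gins3 at 5.42 and 6.58 RPKM (-0.28), and Gins4, the most abundant, at 65.2 and 72.2 RPKM (-0.15). Gins2 shares 67.3% of its exon length with Gse1 on the opposite strand, and Gse1 was at 4.50 RPKM with AS and 4.31 RPKM with the vehicle. Whether reads were counted by strand is not stated in the sources used here, so the 2 genes cannot be fully separated. Mcm10, which helps to start the helicase, was at 7.33 RPKM with AS and 9.94 RPKM with the vehicle (-0.43), Orc6, a subunit of the origin recognition complex, at 22.5 and 28.9 RPKM (-0.36), and Cdc45, the helicase cofactor, at 15.5 and 18.7 RPKM (-0.28).

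The 3 genes that finish lagging-strand fragments had the lowest median of the fork groups, -0.68. Lig1, which seals the nicks (chr7:13277283-13311433, plus strand), was the most abundant member with the vehicle, at 110 RPKM from 23726 reads, against 68.5 RPKM from 12995 reads with AS (-0.69, 95% interval -0.72 to -0.66). Dna2, a nuclease and helicase that trims long flaps, was among the least abundant, at 0.837 RPKM from 221 reads with AS and 1.40 RPKM from 419 reads with the vehicle (-0.68, 95% interval -0.99 to -0.51). Its interval was the widest but for that of one gene named below, and its value rests on the 0.1 RPKM added more than that of any abundant member. Fen1, which removes the flaps of primers, was at 9.91 RPKM with AS and 14.4 RPKM with the vehicle (-0.53, 95% interval -0.65 to -0.43). Fen1 shares 78.8% of its exon length with Gm10143 on the opposite strand, which was at 7.01 and 10.1 RPKM (-0.52), so the 2 cannot be told apart without knowing the strand setting.

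**Figure D2:**
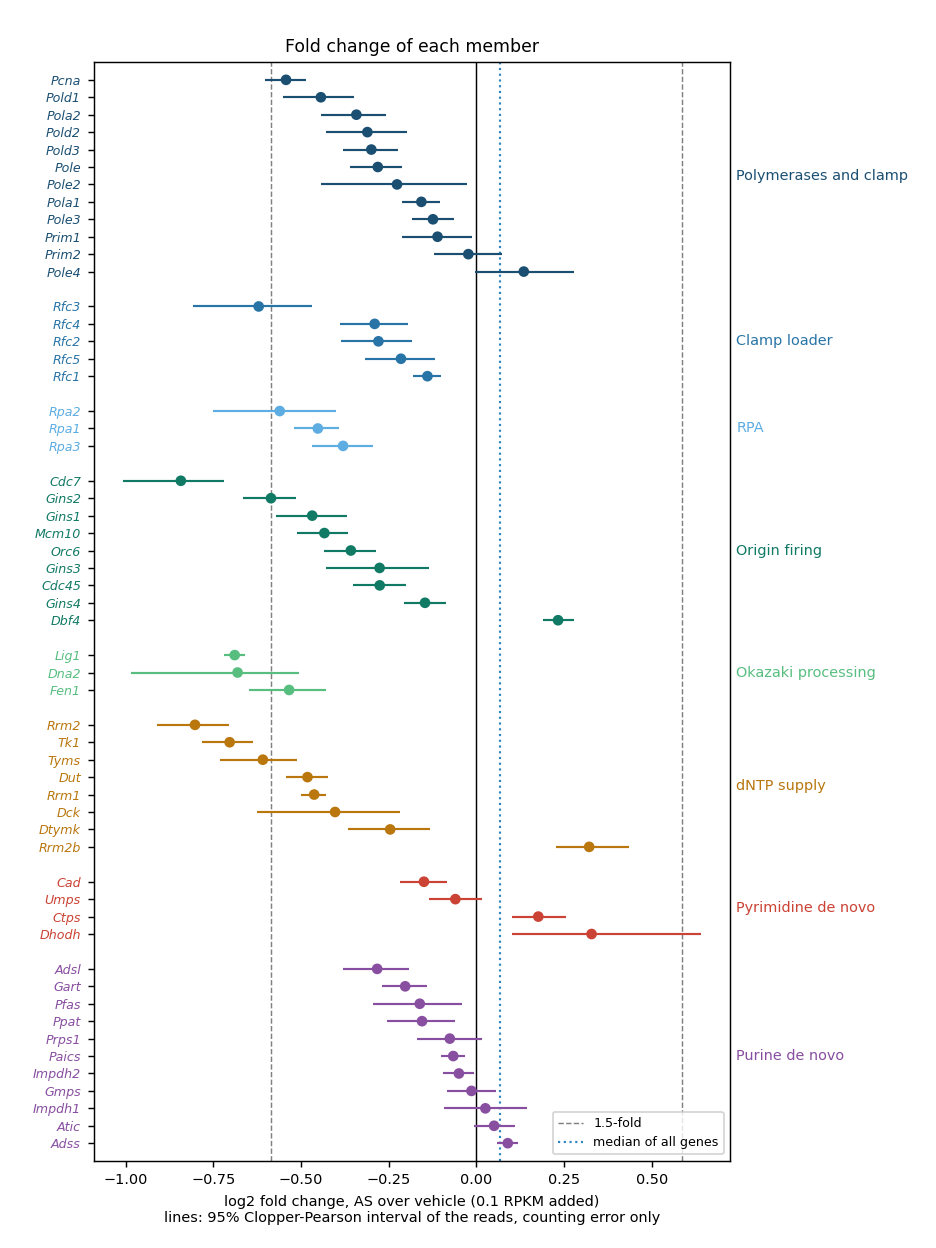
Log2 fold change of AS over vehicle for the 55 members by role, with 1.5-fold lines (dashed) and the median of all genes, 0.07 (dotted). Lines through the points are 95% Clopper-Pearson intervals of the reads (counting error only), computed without the 0.1 RPKM that the points include. Of the fork and dNTP genes, 37 of 40 points lie left of 0, and Dbf4, Rrm2b and Pole4 lie to the right.

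The enzymes of dNTP supply were lower as a group, with 7 of 8 lower and a median log2 fold change of -0.47. Ribonucleotide reductase held the widest contrast among them. Rrm2, its small subunit of dividing cells (chr12:24708241-24714146, plus strand), was at 9.32 RPKM from 1160 reads with AS and 16.3 RPKM from 2300 reads with the vehicle, which was 42.9% lower (-0.80, 95% interval -0.91 to -0.71). Rrm2b, the small subunit induced by p53 (chr15:37923952-37961318, minus strand), was higher with AS, at 3.87 RPKM against 3.08 RPKM (0.32, 95% interval 0.23 to 0.43). Rrm1, the large subunit (chr7:102441695-102469771, plus strand), was at 21.1 RPKM with AS and 29.1 RPKM with the vehicle (-0.46). The RPKM ratio of Rrm2 to Rrm2b was 2.41 with AS and 5.31 with the vehicle, and that of Rrm1 to Rrm2 was 2.26 and 1.78. Thymidine nucleotides are made by 2 routes, and both were lower. Tk1, which salvages thymidine (chr11:117815526-117826092, minus strand), was at 10.1 RPKM with AS and 16.5 RPKM with the vehicle (-0.70, 95% interval -0.78 to -0.64). Tyms, which makes thymidylate from deoxyuridylate (chr5:30058202-30073617, minus strand), was at 3.93 and 6.04 RPKM (-0.61, 95% interval -0.73 to -0.51). Dut, which clears dUTP and yields the substrate of thymidylate synthase, was at 35.5 RPKM with AS and 49.6 RPKM with the vehicle (-0.48). Dck, a kinase of deoxycytidine salvage, was at 1.96 and 2.62 RPKM (-0.40), and Dtymk, the thymidylate kinase, at 8.92 and 10.6 RPKM (-0.25).

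The 15 enzymes that build pyrimidine and purine precursors were close to the vehicle level, with a median log2 fold change of -0.06. Of them 10 were lower and 5 higher with AS, where 39.1% of all genes were lower. Under TMM scaling their median was -0.13, with 12 lower and 3 higher, where 50.0% of all genes were lower. Below the median of all genes, under either scaling, were 30 of the 32 fork genes and 7 of the 8 dNTP enzymes. For the precursor enzymes this count was 12 of the 15. Their summed level was 353.6 RPKM with AS and 359.4 RPKM with the vehicle, while the 8 dNTP enzymes summed to 94.6 and 133.7 RPKM and the 32 fork genes to 524.8 and 666.4 RPKM. For 12 of the 15, the log2 fold change was within 0.2 of 0, as it was for 56.1% of all genes, and under TMM scaling for 9 of the 15 and 58.8% of all genes. The lowest of the precursor enzymes, Adsl, was higher than 18 of the 32 fork genes and 6 of the 8 dNTP enzymes. The median of the dNTP enzymes minus that of the precursor enzymes was -0.41 on the log2 scale. A rescaling shifts all genes by nearly the same amount, so it could not change this difference. No test was made of this difference, since genes are not replicates of a condition.

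In the pyrimidine pathway, Dhodh, the mitochondrial dihydroorotate dehydrogenase, was the member with fewest vehicle reads, 217, against 248 with AS. It was at 0.873 RPKM with AS and 0.675 RPKM with the vehicle (0.33, 95% interval 0.10 to 0.64), the widest interval of the 55. Ctps, the CTP synthase, was higher, at 18.3 and 16.2 RPKM (0.18, 95% interval 0.10 to 0.25). Cad, which carries out the first steps of the pathway, was at 8.57 RPKM with AS and 9.52 RPKM with the vehicle (-0.15). Umps, which ends the route to UMP, was at 16.9 and 17.6 RPKM (-0.06), and its interval included 0.

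In the purine pathway, 8 of 11 genes were lower with AS (39.1% of all genes were), and Adsl had the lowest value. Of the 11 genes, 10 were below the median of all genes. The intervals of Prps1, Gmps, Atic and Impdh1 included 0. Prps1, which makes the ribose phosphate donor, was at 19.6 RPKM with AS and 20.7 RPKM with the vehicle (-0.08). Ppat, which commits to the pathway, was at 7.77 and 8.67 RPKM (-0.16), and Paics, a later enzyme, at 87.9 and 92.0 RPKM (-0.07). The 2 genes lie head to head on chr5, Ppat at 76913249-76951578 on the minus strand and Paics at 76951307-76967509 on the plus strand, with 272 bases in common. The other enzymes of the route to IMP were at similar small values. Gart was at 15.2 and 17.5 RPKM (-0.20), Pfas at 2.57 and 2.88 RPKM (-0.16), Adsl, which acts in both the IMP and AMP branches, at 6.29 and 7.67 RPKM (-0.28), and Atic, which closes the ring, at 12.8 and 12.4 RPKM (0.05). In the branches to GMP and AMP, Impdh2 was at 55.2 RPKM with AS and 57.1 RPKM with the vehicle (-0.05), Impdh1 at 7.63 and 7.50 RPKM (0.03), Gmps at 8.71 and 8.79 RPKM (-0.01) and Adss at 85.4 and 80.2 RPKM (0.09). Atic and Impdh1 are counted above as higher with AS under the deposited scaling, but both were lower under the 3 other scalings tried, so their direction depends on the scaling.

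**Figure D3:**
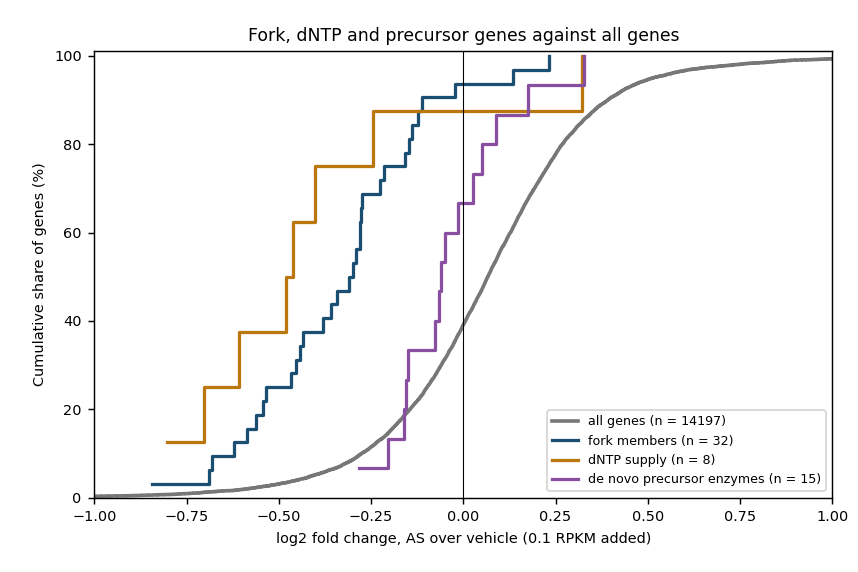
Cumulative share of genes (percent) against the log2 fold change of AS over vehicle for all 14197 genes, the 32 fork genes, the 8 dNTP enzymes and the 15 precursor enzymes. The fork and dNTP curves lie left of that of all genes, with medians of -0.31 and -0.47 against 0.07, and the precursor curve, at -0.06, lies nearer to it.

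Other genes of the same systems were read from longer lists, also chosen with earlier results of these data known. All 37 other fork genes looked up, such as further subunits, RNases H and chromatin factors of the fork, were in the table. Their median log2 fold change was -0.26, 27 were lower (39.1% of all genes were) and 2 were lower by at least 1.5-fold (2.01% of all genes were). Those 2 were Pclaf, which binds PCNA, at 5.20 RPKM with AS and 9.01 RPKM with the vehicle (-0.78), and Exo1, a nuclease of repair, at 1.51 and 2.34 RPKM (-0.60). The highest were Asf1a, a histone chaperone (0.48), and Mtbp, a partner of origin firing (0.37). Of 42 other genes of nucleotide metabolism, 41 were listed. Of these, 21 were lower (39.1% of all genes were) and 20 higher, and 25 were below the median of all genes. By 1.5-fold in either direction, 0 of these genes differed (2.01% of all genes were lower and 3.56% higher by as much). Their median was -0.0042, with Nme1 (-0.42) and Nme2 (-0.31), nucleoside diphosphate kinases, lowest, and Tk2, the mitochondrial thymidine kinase (0.45), and Nt5e, an ecto-nucleotidase (0.42), highest. Tk2 and Tk1, kinases of thymidine in the mitochondria and in the cytosol, thus stood on opposite sides of the vehicle level.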

How the data were processed

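RNA of 4T1 cells treated with 20 µM AS or the vehicle for 24 h was sequenced, 1 library per condition, from stranded mRNA libraries. One table was deposited by the authors, with 14197 genes by symbol. It holds the RPKM of each library, the unit of which was found from the values, and a log2 of the mean CPM over both libraries, also as deposited by the authors. It holds 3 columns of the authors' own comparison, a log2 fold change, a p-value and an FDR, which were not used. Per the labels, fastp 0.23.4, STAR 2.5.3a and featureCounts were used by the authors, and the build named is GRCh38, a human one. The paper's methods name DESeq2 and also describe an array workflow.

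Reads were recovered as RPKM times exon length times library size, and were whole within 0.001 reads in both libraries. The size of each library was itself inferred, as the value that made the reads of most genes whole. Lengths equalled the summed exon length in GENCODE M21 (GRCm38) for 12715 of 13502 genes with a single entry (94.2%) and for 54 of the 55 members. Coordinates are those of GENCODE M21. For 1482 genes, Lig1 among them, the length was found from the mean log2 CPM. Members had 217 to 23726 reads, and the half-width of their intervals was at most 0.27 on the log2 scale. No p-value was computed. Calls used a log2 fold change beyond 1, or 1.5-fold. Each of the 55 members is named, and of the lists of other fork and other nucleotide genes the 2 lowest and 2 highest. The markers named were chosen after their values were seen. The members and lists were chosen with earlier results of these data known. Python 3.11.15, numpy 2.4.6, pandas 2.3.3 and scipy 1.17.1 were used. Alternatives were 0 or 1 RPKM added, 3 other scalings (0.5 reads added to the recovered reads, and, chosen after seeing the data, 0.1 RPKM kept), a minimum mean of 1 RPKM, and a vehicle library thinned to the depth of the AS library.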

Additional observations from a re-analysis of the deposited data

How the results depend on the processing

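The fork median ranged from -0.39 to -0.28 over the alternatives, the nucleotide median from -0.23 to -0.12 and their difference from -0.18 to -0.15. The 3 other scalings shift all genes by nearly the same amount, so they could not change that difference. The count of members beyond a log2 value of 1, lower or higher, was 0 under each of the alternatives. The number of members lower by at least 1.5-fold was 4 with 1 RPKM added (Cdc7, Lig1, Rrm2 and Tk1), where 0.916% of all genes were. It was 11 under TMM, median-of-ratios or upper-quartile scaling, which added Pcna, Rpa2 and Fen1. Under these, 3.34%, 3.34% and 3.54% of all genes were lower by as much. It was 8 under the others, with 1.82% to 2.49% of all genes. The factors of these 3 scalings were 0.07, 0.07 and 0.08 on the log2 scale. As planned they were applied to reads with 0.5 reads added in place of the 0.1 RPKM, so 2 choices changed at once. The same scalings with the 0.1 RPKM kept, chosen after seeing the data, also gave 11. There 2.77%, 2.78% and 2.94% of all genes were lower by as much. Under both forms Atic and Impdh1 changed sign. With 0.5 reads added, 18, 18 and 26 of the 55 members moved by at least the half-width of their own interval. With the 0.1 RPKM kept, 15, 15 and 26 members did. The share of all genes higher with AS went from 60.9% to 50.0%, 50.0% and 48.1% with 0.5 reads added, and to 50.0%, 50.0% and 48.0% with the 0.1 RPKM kept. The dNTP median ranged from -0.55 to -0.46 and the precursor median from -0.14 to -0.06. With 1 RPKM added, the value of Dna2 was -0.39 and that of Cdc7 was -0.69. A minimum mean of 1 RPKM left out Dhodh. No paired analysis was possible because each condition has 1 library, so the spread between cultures cannot be measured and leaving out a replicate cannot be run. Of the 55 members, 19 share exon bases with another gene, 6 of them over 10% of their length (Fen1, Gins2, Gart, Rfc2, Rfc4 and Rfc5, each with a gene on the opposite strand). Pcna, Tyms and Impdh2 have named pseudogenes, and how reads shared with them were assigned is not given in the sources used here.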
